A study of Mus musculus with 18 samples.

Results

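Chrd, Bambi, Fstl1 and Ltbp3 encode extracellular or decoy modulators of signalling by bone morphogenetic proteins (BMPs) and transforming growth factor beta (TGF-beta). They were chosen by symbol, and each matched 1 row, so that they make up 4 of the 40620 rows of the count table. All 4 passed the filter on low counts and were among the 12930 rows tested. The cells were MC3T3-E1, a mouse preosteoblast line, with 1 of 3 stably expressed lentiviral short hairpin constructs. shRcor2-18 and shRcor2-20 were directed against Rcor2, a corepressor of the CoREST family, and carry the genotype label RCOR2 knockdown. shScramble was their control and is labelled WT, and nothing in the labels says whether a construct was kept as a clone or as a pool of cells. The sample titles give 3 times, 0h, 24h and 7d, with 2 samples per construct and time, which makes 18 RNA-seq libraries in 9 groups. Differentiation was induced with 5 mM beta-glycerophosphate, 10 nM dexamethasone and ascorbic acid (50 µg/ml). The study's question was what loss of Rcor2 does while these cells differentiate into osteoblasts.

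BMP and TGF-beta dimers bind pairs of serine/threonine kinase receptors at the cell surface, which phosphorylate SMAD transcription factors. Much of the control of the pathway lies outside the cell, where binding proteins store the ligands, keep them away from their receptors or present them. In the osteoblast lineage, BMPs drive differentiation and bone formation, and TGF-beta is laid down in bone matrix in a latent form.

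Sample 1 of each construct at 0h was left out, which left 15 libraries with totals of 3504808 to 6139315 counts, and with 1 library per construct at 0h. The 3 libraries left out correlated with the other 15 at a Pearson r of 0.75 to 0.78 over log2 CPM (read counts scaled to library size), where the 15 correlated with each other at 0.86 to 0.92. Row names and reads were taken to be in register only in stretches at the start of 4 chromosomes, with 837 protein-coding rows. Each stretch was delimited by genes of families that nearly all or most cells use, such as ribosomal proteins, and by single genes such as Gsk3b and Rela. All of these are called family genes here, and their level within a stretch is set by the rule. Other coding rows, which the rule did not use, averaged 20 CPM or more in 419 of 786 rows (53.3%) within the stretches and in 3700 of 19502 rows (19%) elsewhere. All 4 modulators lie within them. The stretch that holds Bambi is the shortest, with 31 rows and 3 family genes, the fewest that the rule accepts, so the name of the Bambi row is the least certain of the 4. The row named Rcor2 lies outside them, so the knockdown could not be checked. That row held 201 to 265 CPM, and its log2 difference between the hairpins and shScramble over all times was 0.10 ± 0.06 (SE, adjusted p = 0.832, edgeR). None of the 14 osteoblast markers listed was in register, so the labelled cell type could not be checked. The adipocyte marker Adipoq averaged 0.15 to 0.23 CPM at the 3 times. The skeletal muscle marker Actn3 averaged 6.09 ± 3.85 CPM at 0h (SD, n = 3), 80.4 ± 21.9 CPM at 24h and 125 ± 18.1 CPM at 7d (SD, n = 6 each), and its part in the results below was not tested. No endothelial or haematopoietic marker was in register.

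The libraries did not group by construct. Over 551 in-register rows other than the modulators, each of the 12 libraries at 24h and 7d was closest to a library of another construct, by the root mean square difference in log2 CPM. The same 3 pairs formed at both times: shRcor2-18 sample 1 with shScramble sample 1, shRcor2-20 sample 1 with shScramble sample 2, and shRcor2-18 sample 2 with shRcor2-20 sample 2. The labels name no batch that gives these pairs, so values within them are set beside the construct comparisons below. Whether each library carries the construct on its label could not be checked, and every hairpin difference below takes the labels as given. Differences between times or constructs are log2 fold changes ± SE from edgeR's quasi-likelihood test, with p-values adjusted by the Benjamini-Hochberg method over all 12930 rows and a threshold of 0.05.

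The modulators spanned a wide range of transcript levels, and in these bulk libraries the number of cells that make a transcript and its amount per cell cannot be told apart. Per kilobase of exon, Fstl1 averaged 344 ± 110 CPM (SD over 15 libraries) and Ltbp3 177 ± 37.8 CPM. Chrd averaged 8.97 ± 2.46 CPM per kilobase and Bambi 3.03 ± 1.28 CPM per kilobase. The highest library exceeded the lowest by 5.45-fold for Bambi, 3.23-fold for Fstl1, 2.45-fold for Chrd and 2.06-fold for Ltbp3. Genes next to them in the annotation differed widely in level. Around Fstl1, Hgd averaged 0.08 CPM, Ndufb4 120 CPM and Lrrc58 2100 CPM, and around Bambi, Crem averaged 26.1 CPM, Cul2 269 CPM, Lyzl1 0 CPM and Map3k8 11.8 CPM. Beside Chrd, Polr2h averaged 64.8 CPM, Thpo 3.68 CPM, Teddm3 0 CPM and Ephb3 211 CPM. Beside Ltbp3, Fam89b averaged 325 CPM, Sssca1 36.3 CPM and Frmd8 167 CPM.

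**Figure D1:**
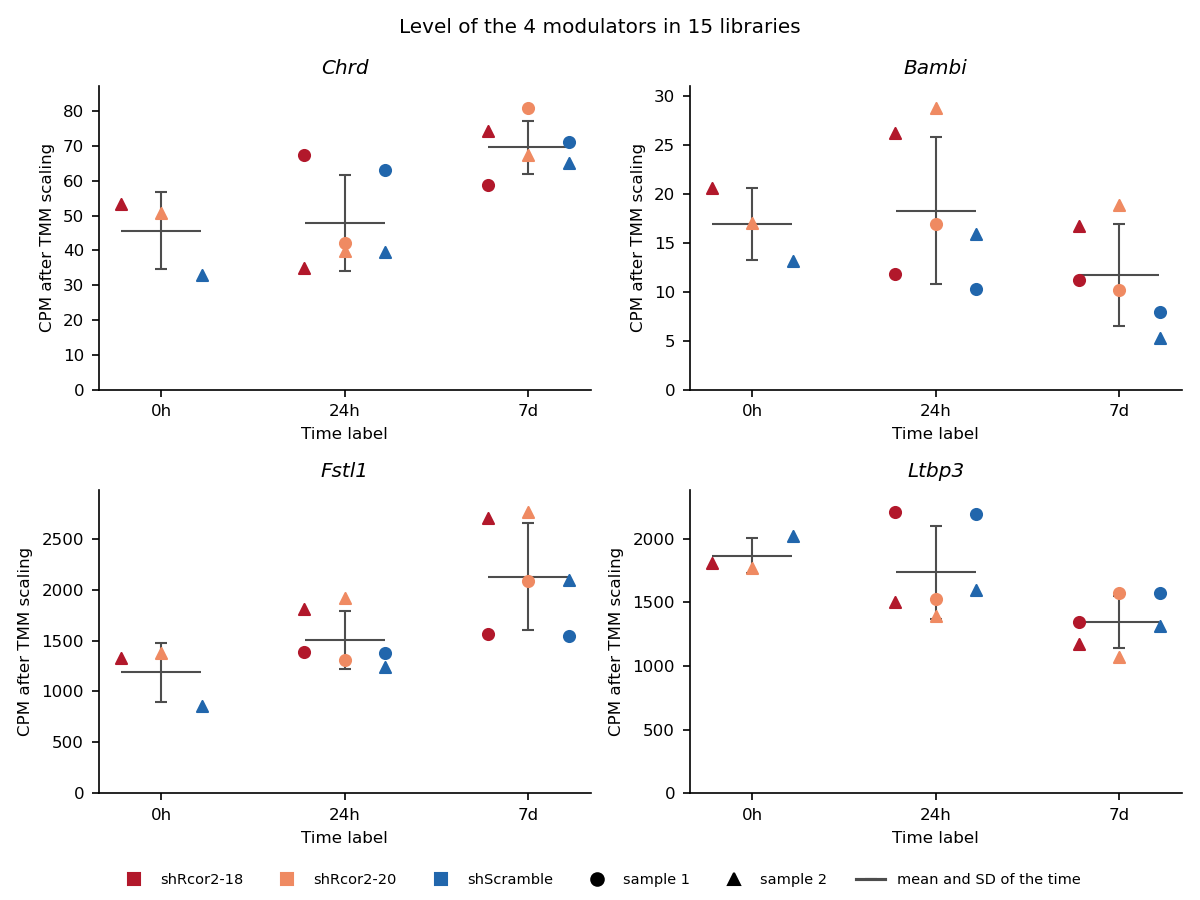
Level of each modulator (CPM after TMM scaling, linear axes from 0) in 15 libraries at 0h, 24h and 7d, with constructs by colour, samples by shape, and the mean and SD of each time as grey bars. All 6 libraries at 7d lie above the 3 at 0h for Chrd and Fstl1 and below them for Ltbp3, while the times overlap for Bambi.

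Chrd (chordin) is a secreted antagonist that binds BMPs and keeps them from their receptors. At 0h it stood at 53.4 CPM in shRcor2-18, 50.8 CPM in shRcor2-20 and 33.1 CPM in shScramble. At 24h the samples held 67.4 and 35.1 CPM in shRcor2-18, 42.2 and 39.8 CPM in shRcor2-20, and 63.2 and 39.4 CPM in shScramble. At 7d they held 58.9 and 74.3 CPM in shRcor2-18, 80.8 and 67.4 CPM in shRcor2-20, and 71.3 and 65.3 CPM in shScramble. The libraries at 7d sat in a narrow band above every library at 0h, whereas the 2 sample 1 libraries of shRcor2-18 and shScramble at 24h reached into it.

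Means of Chrd were 45.7 ± 11.1 CPM at 0h (SD, n = 3), 47.9 ± 13.8 CPM at 24h and 69.7 ± 7.61 CPM at 7d (SD, n = 6 each). The log2 difference was 0.64 ± 0.24 for 7d against 0h (adjusted p = 0.181, edgeR) and 0.55 ± 0.19 for 7d against 24h (adjusted p = 0.180, edgeR), neither past the threshold. With all 18 libraries the difference for 7d against 0h was 0.07 (adjusted p = 0.91, edgeR). From 24h to 7d the value was higher in 5 of 6 pairs of libraries of like construct and number, by a median of 0.74 on the log2 scale. The exception was shRcor2-18 sample 1, at -0.19. No label says that a sample number joins libraries of different times, for Chrd or for the modulators below. Such counts of pairs are descriptions, and the share of all rows with counts like these was not computed. Between 24h and 0h the log2 difference was 0.09 ± 0.23 (adjusted p = 0.990, edgeR), and with all 18 libraries it was -0.50. The Chrd gene overlaps Thpo, on the opposite strand, by 1385 bases, and whether the counting used strand is not given, so reads of the overlap cannot be told apart. The row of Thpo averaged 2.62 CPM at 0h, 2.81 CPM at 24h and 5.07 CPM at 7d. The 250 bases before the RefSeq start of Chrd, which averaged higher at 7d than at either earlier time, are printed in lower case, with 1 match to a GC-rich SMAD element (GGCGCC, the same on both strands) in capitals. They lie at chr16:20732877-20733126 on the plus strand of GRCm38.p6.
Chrd: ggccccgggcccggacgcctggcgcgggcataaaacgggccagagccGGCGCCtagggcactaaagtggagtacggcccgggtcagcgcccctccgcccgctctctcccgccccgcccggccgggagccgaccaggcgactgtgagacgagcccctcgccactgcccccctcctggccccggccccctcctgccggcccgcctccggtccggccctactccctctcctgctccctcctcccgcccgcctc

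Fstl1 (follistatin-like 1) is a secreted glycoprotein that binds BMP ligands and is widely made by cells of mesenchymal origin. It was the most highly expressed of the 4 per length. At 0h it stood at 1326 CPM in shRcor2-18, 1381 CPM in shRcor2-20 and 855 CPM in shScramble. At 24h the samples held 1387 and 1814 CPM in shRcor2-18, 1306 and 1921 CPM in shRcor2-20, and 1376 and 1242 CPM in shScramble. At 7d they held 1565 and 2705 CPM in shRcor2-18, 2085 and 2764 CPM in shRcor2-20, and 1549 and 2095 CPM in shScramble. Every library at 7d lay above every library at 0h, and the ranges at 7d and 24h overlapped.

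Means of Fstl1 were 1187 ± 289 CPM at 0h (SD, n = 3), 1508 ± 285 CPM at 24h and 2127 ± 528 CPM at 7d (SD, n = 6 each). The log2 difference for 7d against 0h was 0.86 ± 0.23, a 1.82-fold higher level, with an adjusted p of 0.0658 (edgeR), just outside the threshold. It passed in 6 of 23 alternatives. These included DESeq2 (0.87, adjusted p = 0.00142), which called 12% of the rows for which it gave an adjusted p. They also included the fit restricted to in-register coding rows (0.87, adjusted p = 0.0148, edgeR), which called 125 of 555 rows. The reported fit called 5.76%. With all 18 libraries the log2 difference was 0.75 (adjusted p = 0.0394, edgeR), and with the sample number within construct as a replicate block it was 1.04 (adjusted p = 0.0326, edgeR). Leaving out shRcor2-18 sample 1 at 7d also gave a call (0.98, adjusted p = 0.0426, edgeR), and across all 23 alternatives the adjusted p ranged from 0.00142 to 0.253. For 7d against 24h the log2 difference was 0.49 ± 0.18 (adjusted p = 0.196, edgeR), and the value at 7d was higher in 6 of 6 pairs of libraries of like construct and number, by 0.17 to 0.75 on the log2 scale. For 24h against 0h it was 0.37 ± 0.22 (adjusted p = 0.603, edgeR). The 250 bases before the RefSeq start of Fstl1, which had the largest log2 difference of the 4 between 7d and 0h over these 15 libraries but not over all 18, lie at chr16:37776805-37777054 on the plus strand of GRCm38.p6, and no letters are in capitals because none of the motifs searched matched.
Fstl1: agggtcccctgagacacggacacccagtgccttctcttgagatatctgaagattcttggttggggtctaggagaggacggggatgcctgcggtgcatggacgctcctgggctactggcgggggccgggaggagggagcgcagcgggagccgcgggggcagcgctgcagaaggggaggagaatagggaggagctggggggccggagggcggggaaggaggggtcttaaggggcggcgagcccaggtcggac

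Ltbp3 (latent TGF-beta binding protein 3) joins the latent TGF-beta complex and helps it to be secreted and stored in the matrix. At 0h it stood at 1807 CPM in shRcor2-18, 1771 CPM in shRcor2-20 and 2026 CPM in shScramble. At 24h the samples held 2211 and 1501 CPM in shRcor2-18, 1526 and 1391 CPM in shRcor2-20, and 2196 and 1598 CPM in shScramble. At 7d they held 1344 and 1175 CPM in shRcor2-18, 1575 and 1072 CPM in shRcor2-20, and 1575 and 1314 CPM in shScramble. All 6 libraries at 7d lay below the 3 at 0h, and the highest libraries of the series were the sample 1 libraries of shRcor2-18 and shScramble at 24h.

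Means of Ltbp3 were 1868 ± 138 CPM at 0h (SD, n = 3), 1737 ± 367 CPM at 24h and 1342 ± 205 CPM at 7d (SD, n = 6 each). The log2 difference was -0.48 ± 0.18 for 7d against 0h (adjusted p = 0.175, edgeR), -0.36 ± 0.15 for 7d against 24h (adjusted p = 0.244, edgeR) and -0.11 ± 0.18 for 24h against 0h (adjusted p = 0.925, edgeR). The difference between 7d and 0h passed the threshold in 2 of 23 alternatives, with all 18 libraries (-0.85, adjusted p = 0.0391, edgeR) and with the sample number shared over the constructs as a replicate block (-0.67, adjusted p = 0.0133, edgeR). From 24h to 7d the value was lower in 5 of 6 pairs of libraries of like construct and number. The exception was shRcor2-20 sample 1, at 0.05 on the log2 scale. The 250 bases before the RefSeq start of Ltbp3, which averaged lower at 7d, lie at chr19:5740650-5740899 on the plus strand of GRCm38.p6, with 1 match to the SMAD box (CAGAC or, on the other strand, GTCTG) in capitals.
Ltbp3: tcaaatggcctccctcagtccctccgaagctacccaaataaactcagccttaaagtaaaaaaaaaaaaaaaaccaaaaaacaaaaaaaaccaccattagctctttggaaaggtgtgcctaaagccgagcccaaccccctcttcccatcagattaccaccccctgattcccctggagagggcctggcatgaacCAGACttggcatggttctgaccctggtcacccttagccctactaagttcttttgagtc

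In these upstream windows, from RefSeq, GC content was 78.0% for Chrd, 68.0% for Fstl1 and 47.2% for Ltbp3. Of 32851 mouse promoter windows of the same length, 42.2% held the SMAD box on either strand and 9.59% the GC-rich SMAD element. A glucocorticoid receptor motif (AGAACA or TGTTCT), searched because the medium contained dexamethasone, was in 16.1% of the windows and in none of the 3.

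Bambi (BMP and activin membrane-bound inhibitor) encodes a decoy receptor without a kinase domain and is itself a known target of BMP and TGF-beta signalling. It had the fewest reads, 18 to 129 per library. At 0h it stood at 20.5 CPM in shRcor2-18, 17.02 CPM in shRcor2-20 and 13.2 CPM in shScramble. At 24h the samples held 11.8 and 26.2 CPM in shRcor2-18, 16.9 and 28.7 CPM in shRcor2-20, and 10.2 and 15.8 CPM in shScramble. At 7d they held 11.2 and 16.7 CPM in shRcor2-18, 10.2 and 18.8 CPM in shRcor2-20, and 7.89 and 5.27 CPM in shScramble. The ranges of the 3 times overlapped, and the lowest 2 libraries of all were those of shScramble at 7d.

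Means of Bambi were 16.9 ± 3.69 CPM at 0h (SD, n = 3), 18.3 ± 7.55 CPM at 24h and 11.7 ± 5.18 CPM at 7d (SD, n = 6 each). From 24h to 7d the value was lower in 6 of 6 pairs of libraries of like construct and number, with log2 differences of -1.59 to -0.08. The log2 difference was -0.69 ± 0.30 for 7d against 24h (adjusted p = 0.279, edgeR), -0.59 ± 0.36 for 7d against 0h (adjusted p = 0.408, edgeR) and 0.10 ± 0.37 for 24h against 0h (adjusted p = 1.00, edgeR). For 7d against 0h it was -1.04 with all 18 libraries, -0.33 with the sample number within construct as a replicate block and -0.30 with the number shared over the constructs as a block, with adjusted p-values of 0.0938, 0.638 and 0.688 (edgeR).

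Set against the whole table, none of the 4 modulators passed the threshold in any of the 3 comparisons of times, whereas edgeR called 1.86% of the 12930 rows for 24h against 0h, 5.76% for 7d against 0h and 2.34% for 7d against 24h. At an unadjusted p under 0.05, edgeR counted 0 of 4 modulators for 24h against 0h, 3 of 4 for 7d against 0h and 4 of 4 for 7d against 24h, beside 11.5%, 20.5% and 17.8% of all rows tested. DESeq2 called 1 of the 4, Fstl1, for 7d against 0h, where it called 12% of the rows for which it gave an adjusted p. It called none for 24h against 0h or 7d against 24h, where it called 5.06% and 8.84% of such rows. The libraries at 7d and 0h did not overlap for 3 of the 4, a separation seen in 14.9% of all rows tested. None of the 4 separated 24h from 0h or 7d from 24h, as 7.77% and 5.01% of the rows did. These shares are over the whole table, whereas the 4 are in register, as 555 of the tested rows were. Shares among those 555 rows in the reported fit were not counted. A separate edgeR fit restricted to them called 29 for 24h against 0h, 125 for 7d against 0h and 90 for 7d against 24h. These comparisons share their libraries, so their values are not independent of each other.

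**Figure D2:**
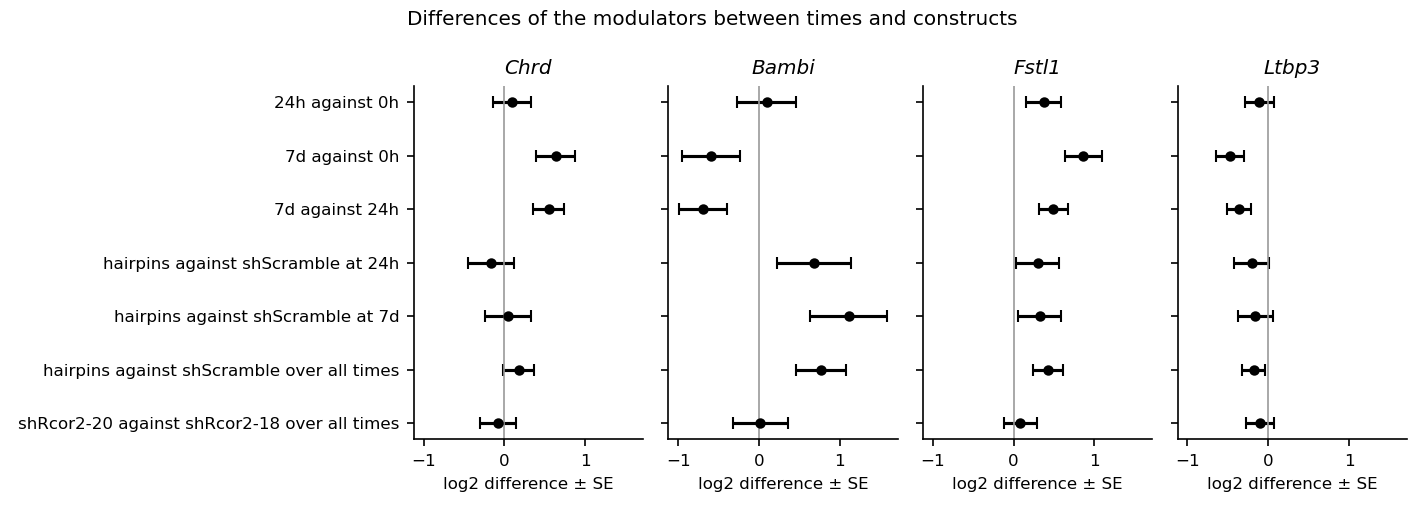
Log2 differences of each modulator (points, with SE as bars) between times, averaged over the constructs, and between constructs, from the edgeR fit over 12930 rows. Between 7d and the earlier times, Chrd and Fstl1 lie above 0 and Bambi and Ltbp3 below it. Between the hairpins and shScramble, the 3 points of Bambi lie farthest above 0, at 0.68 (24h), 1.11 (7d) and 0.76 (all times).

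The hairpins were then compared with shScramble. No modulator passed the threshold over all times, where edgeR called 0.00773% of the rows (1 row). Bambi averaged 17.3 ± 6.24 CPM in shRcor2-18, 18.3 ± 6.68 CPM in shRcor2-20 and 10.5 ± 4.18 CPM in shScramble (SD over 5 libraries each). Its log2 difference was 0.76 ± 0.31 for both hairpins together (adjusted p = 0.762, unadjusted p = 0.0387, edgeR), 0.76 ± 0.35 for shRcor2-18 and 0.77 ± 0.35 for shRcor2-20. For both hairpins at 0h, with 1 library per construct, it was 0.50 ± 0.65. At 7d all 4 hairpin libraries lay above both shScramble libraries of Bambi, with a log2 difference of 1.11 ± 0.48 (adjusted p = 1.00, unadjusted p = 0.0484, edgeR). Such a separation upwards at 7d was seen in 4.81% of the rows tested, and Bambi was the only modulator that showed a separation at 7d. The shScramble values at 7d rested on 30 and 18 reads, with exact 95% Poisson intervals of 5.32 to 11.3 CPM and 3.12 to 8.32 CPM, which cover counting error only. The nearest hairpin library, shRcor2-20 sample 1, had 41 reads and an interval of 7.30 to 13.8 CPM, which overlapped both. At 24h the log2 difference of Bambi was 0.68 ± 0.46 (adjusted p = 1.00, edgeR) and the constructs overlapped, and leaving out 1 library moved it over 0.33 to 1.01.

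Fstl1 averaged 1759 ± 562 CPM in shRcor2-18, 1891 ± 592 CPM in shRcor2-20 and 1423 ± 454 CPM in shScramble (SD over 5 libraries each). The log2 difference over all times, which weighs the 3 times equally, was 0.43 ± 0.18 (adjusted p = 0.770, unadjusted p = 0.0456, edgeR). At 0h, where each construct had 1 library, it was 0.66 ± 0.39. It was 0.30 ± 0.27 at 24h and 0.32 ± 0.27 at 7d (adjusted p = 1.00 at both, edgeR), and leaving out 1 library moved these over 0.14 to 0.41 and 0.097 to 0.55. For Chrd the log2 difference over all times was 0.18 ± 0.19 (adjusted p = 0.949, edgeR). It was 0.66 ± 0.42 at 0h, again with 1 library per construct, -0.16 ± 0.28 at 24h and 0.04 ± 0.29 at 7d. For Ltbp3 the log2 difference was -0.18 ± 0.15 over all times (adjusted p = 0.876, edgeR). It was -0.18 ± 0.31 at 0h, -0.21 ± 0.22 at 24h and -0.16 ± 0.22 at 7d. edgeR called 0 of 4 modulators at 24h and at 7d, against 0.0155% and 0.0387% of the rows, and counted 0 and 1 at an unadjusted p under 0.05, beside 2.73% and 3.46% of the rows. Over all times it counted 2 at an unadjusted p under 0.05, beside 6.49% of the rows. DESeq2 called none of the 4 in any of these 3 comparisons, and 0.3% (24h), 0.162% (7d) and 0.998% (all times) of the rows for which it gave an adjusted p.

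Within the pairs of closest libraries, the hairpin differences took other values. Fstl1 in the pairs that join a hairpin to shScramble stood at 1387 CPM in shRcor2-18 and 1376 CPM in shScramble, and at 1306 CPM in shRcor2-20 and 1242 CPM in shScramble, at 24h. At 7d it stood at 1565 CPM in shRcor2-18 and 1549 CPM in shScramble, and at 2085 CPM in shRcor2-20 and 2095 CPM in shScramble. The log2 differences within these 4 pairs were 0.01, 0.07, 0.02 and -0.01, and the high values of Fstl1 came from the pair without a shScramble library. Bambi differed by 0.21 and 0.09 on the log2 scale within these pairs at 24h, and by 0.51 and 0.95 at 7d, with the hairpin higher in 4 of 4. Chrd differed by 0.09 and 0.10 at 24h and by -0.28 and 0.31 at 7d, and Ltbp3 by 0.01 and -0.07 at 24h and by -0.23 and 0.26 at 7d, so the direction at 7d was not shared for either gene. For Bambi too, the highest values at each time were in the pair without a shScramble library. That pair, shRcor2-18 sample 2 and shRcor2-20 sample 2, held 26.2 and 28.7 CPM at 24h and 16.7 and 18.8 CPM at 7d. Every other library held at most 16.9 CPM at 24h and 11.2 CPM at 7d. The share of all rows with the hairpin higher in 4 of 4 was not computed. What joins these libraries was not tested.

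**Figure D3:**
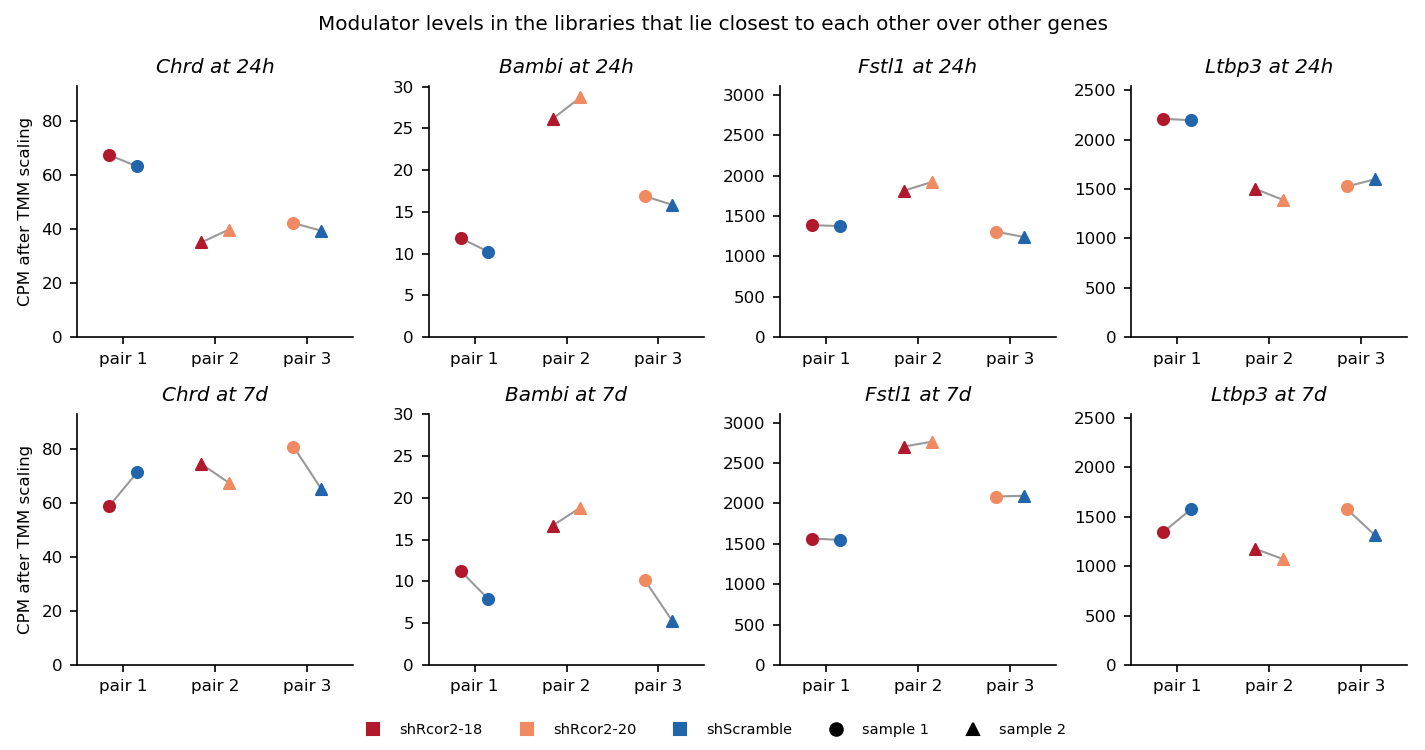
Level of each modulator (CPM after TMM scaling, linear axes from 0) at 24h (top) and 7d (bottom) in the 3 pairs of libraries that were closest over 551 other genes, with constructs by colour, samples by shape and a line joining each pair. Fstl1 differs within a pair by at most 0.08 on the log2 scale, while Bambi at 7d is higher in the hairpin library of both pairs that hold shScramble.

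The pairs were chosen as closest over 551 other in-register rows, so smaller differences within them may hold for such rows in general. The share of rows with ranges apart, as described below, was not counted. At 24h, Bambi, Fstl1 and Ltbp3 differed less within every one of these pairs than between the samples of any construct, whereas Chrd overlapped. At that time the size of the log2 difference within a pair had a median of 0.10 for Chrd, 0.14 for Bambi, 0.07 for Fstl1 and 0.07 for Ltbp3. Between sample 1 and sample 2 of a construct the medians were 0.68 for Chrd, 0.77 for Bambi, 0.39 for Fstl1 and 0.46 for Ltbp3. The ranges within pairs and within constructs at 24h were 0.09 to 0.18 and 0.08 to 0.94 for Chrd, where the samples of shRcor2-20 differed by less than any pair. They were 0.09 to 0.21 and 0.63 to 1.14 for Bambi, 0.01 to 0.08 and 0.15 to 0.56 for Fstl1, and 0.01 to 0.11 and 0.13 to 0.56 for Ltbp3. At 7d the ranges stood apart for Fstl1, with 0.01 to 0.03 within pairs and 0.41 to 0.79 within constructs. For the others at 7d the ranges overlapped: 0.14 to 0.31 within pairs and 0.13 to 0.34 within constructs for Chrd, 0.17 to 0.95 and 0.57 to 0.89 for Bambi, and 0.13 to 0.26 and 0.19 to 0.56 for Ltbp3.

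shRcor2-20 and shRcor2-18 were also set against each other. Over all times the log2 difference was 0.02 ± 0.34 for Bambi, -0.08 ± 0.22 for Chrd, 0.08 ± 0.21 for Fstl1 and -0.10 ± 0.17 for Ltbp3. The hairpin difference at 7d minus that at 24h was 0.43 ± 0.64 for Bambi, 0.21 ± 0.40 for Chrd, 0.02 ± 0.38 for Fstl1 and 0.04 ± 0.31 for Ltbp3. edgeR called none of the 4 in either comparison (adjusted p = 1.00 for each), against 0.0928% of the rows between the hairpins and 0.0541% for the change with time. It counted 0 at an unadjusted p under 0.05, beside 3.54% and 3.09% of the rows. DESeq2 called 0 as well, against 0.421% and 0.255% of the rows for which it gave an adjusted p. In the other 16 comparisons fitted, 9 of them between times within a construct, 0 of 64 tests of a modulator passed with edgeR (lowest adjusted p = 0.275) or DESeq2. DESeq2 called 0.265% to 6.52% of its rows there. With edgeR, 3 of the 64 tests had an unadjusted p under 0.05, beside 2.72% to 13.5% of the rows in these comparisons. Within shRcor2-18, shRcor2-20 and shScramble, edgeR called 0.302%, 0.348% and 0.371% of the rows for 24h against 0h, 0.433%, 0.588% and 0.959% for 7d against 0h, and 0.0387%, 0.0155% and 0.0773% for 7d against 24h. For both hairpins at 0h it called 0.155%, for shRcor2-18 against shScramble 0.0387% (24h), 0.0696% (7d) and 0.101% (all times), and for shRcor2-20 against shScramble 0.0155%, 0.0387% and 0.0387%.

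Across the 15 libraries, the modulators did not share a single course. Log2 CPM of Fstl1 and Ltbp3 correlated at a Pearson r of -0.79, those of Chrd and Fstl1 at 0.56 and those of Chrd and Bambi at -0.56. Bambi correlated with Fstl1 at 0.04. These are descriptions over libraries that share constructs and times. Among 536 in-register coding genes, those most like Chrd were Parn (r = 0.86), Zeb1 (r = 0.85) and Carns1 (r = 0.81). Those most like Fstl1 were 9430020K01Rik (r = 0.96), 2510009E07Rik (r = 0.90) and Pros1 (r = 0.89). Those most like Ltbp3 were Cst6 (r = 0.91), Ehbp1l1 (r = 0.83) and Masp1 (r = 0.82), and those most like Bambi were St3gal6 (r = 0.89), Snx15 (r = 0.81) and Pcx (r = 0.80). Cst6 had a steeper course than Ltbp3, at 23.4 CPM at 0h, 22.4 CPM at 24h and 3.85 CPM at 7d. Carns1 averaged 90.6 CPM at 0h, 89.9 CPM at 24h and 189 CPM at 7d, and Pros1, the gene of protein S, 223 CPM, 217 CPM and 277 CPM at these times.

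Of 144 genes listed for the pathway, the 4 modulators included, 12 were in register and 9 were tested, which leaves 5 others. Vasn, which encodes a TGF-beta binding membrane protein, averaged 1080 ± 82.2 CPM at 7d (SD, n = 6), against 825 ± 59.7 CPM at 0h (SD, n = 3). Its log2 difference was 0.39 ± 0.09 and just passed (adjusted p = 0.0486, edgeR), but 19 of 23 alternatives lost the call, and all 18 libraries gave -0.14 (adjusted p = 0.709). It was already at 1090 ± 75.5 CPM at 24h (SD, n = 6), where the log2 difference from 0h was 0.40 ± 0.09 and did not pass (adjusted p = 0.0905, edgeR), though it passed in 2 of 23 alternatives, DESeq2 and in-register rows. Itgb5, a subunit of an integrin that binds latent TGF-beta, averaged 1260 ± 256 CPM at 7d, against 1840 ± 176 CPM at 0h, with a log2 difference of -0.56 ± 0.15 (adjusted p = 0.0792, edgeR), and passed in 4 of 23 alternatives.

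Among target genes of the pathway, Hes1, better known as a target of Notch, fell to 2.44 ± 1.18 CPM at 24h (SD, n = 6), against 25.4 ± 2.72 CPM at 0h (SD, n = 3). Its log2 difference was -3.48 ± 0.37 (adjusted p = 0.00334, edgeR). It also fell to 3.37 ± 1.23 CPM at 7d, with a log2 difference from 0h of -2.92 ± 0.36 (adjusted p = 0.00347, edgeR), and both calls held in all 23 alternatives. Snai2, a zinc-finger repressor, averaged 131 ± 35.7 CPM at 7d, against 228 ± 39.2 CPM at 0h, and did not pass (-0.79 ± 0.28, adjusted p = 0.158, edgeR), though it passed in 1 of 23 alternatives, with all 18 libraries. Crebbp, a coactivator of SMAD proteins, stood at 250 ± 23.4 CPM at 7d and 249 ± 34.7 CPM at 0h. Of these 5 genes, edgeR called 1 higher and 1 lower for 7d against 0h, beside 3.27% and 2.49% of all rows. It called 1 lower for 24h against 0h, beside 0.387% of all rows, and none for 7d against 24h or for the hairpins over all times. Their median log2 difference for 7d against 0h was -0.56, beside 0.07 over all rows. The ligand Gdf7 and the modulators Ahsg and Nrros were in register but too low to test, and no listed receptor was in register.

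**Figure D4:**
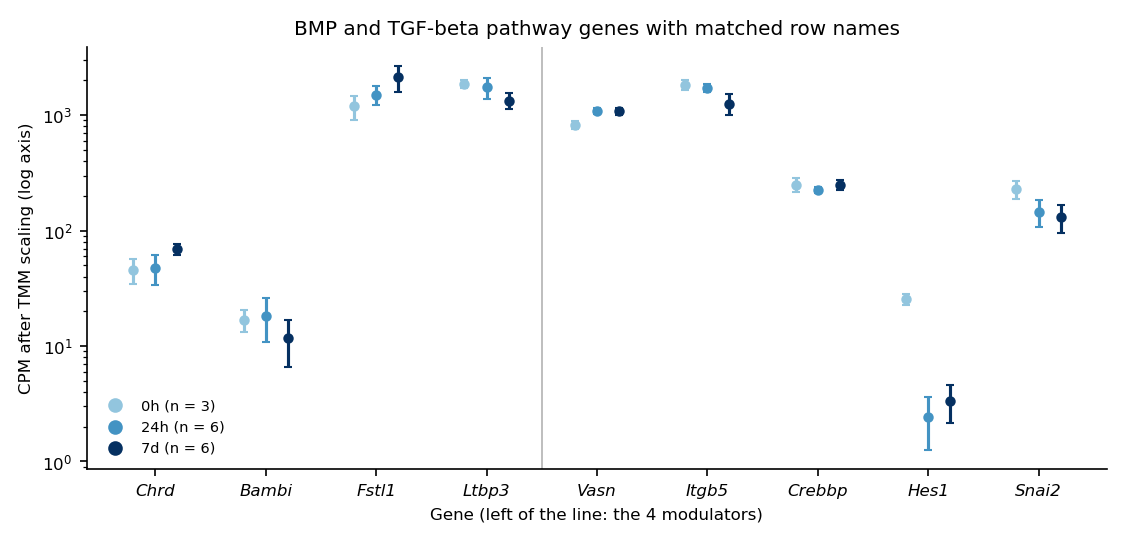
Mean level (CPM after TMM scaling, log axis) with SD of the 4 modulators and the 5 other tested pathway genes at 0h (n = 3), 24h (n = 6) and 7d (n = 6). Hes1 stands at 25.4 CPM at 0h, 2.44 CPM at 24h and 3.37 CPM at 7d, and Chrd and Bambi are the lower 2 of the 4 modulators at each time.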

How the data were processed

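RNA-seq counts were analysed for 4 genes in 15 of 18 libraries. The authors deposited raw counts of reads per gene in 1 table. Reads of 100 bp were handled with FastQC, TopHat2 2.0.9 on mm9, DESeq and DESeq2, per the submitters' processing notes. How reads were counted, by strand or not and on which annotation, is not given in the sources used here. Group, time and sample number came from the sample titles. The protocols name no day 7. No label says that samples of a group were cultured apart, so the p-values cover a spread between samples that may be technical. The members and gene lists were chosen with earlier results of these data known.

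Rows were filtered with filterByExpr, scaled by TMM and fitted as 9 group means in edgeR 4.0.16 (R 4.3.3, robust quasi-likelihood, 6 residual degrees of freedom), where each single library at 0h borrows the spread of the groups with 2. The SE is the size of the log2 fold change over the square root of the F statistic. The genes named are the 4 members, in-register members of 5 pathway lists, the 2 coding genes on either side of each member and, per member, the 3 in-register coding genes that correlated best with it among those averaging at least 1 in log2 CPM. Some genes that this rule names are not reported here. A stretch was in register from a chromosome's start until 2 of 3 consecutive family genes averaged under 20 CPM, where at least 3 were detected. This rule was chosen after seeing the data. Gene order, exon length and overlaps came from GENCODE vM21 on GRCm38. In simulated data for 7d against 24h with 12347 genes, the test called 8.96% of genes changed 1.5-fold, 34.3% of those changed 2-fold and 83.3% of those changed 4-fold, with 4 false calls. The simulated libraries were independent, with a spread set by a gene's level alone. They held none of the pairs of closest libraries described above, so these rates may not hold for the real data. Alternatives were other scalings, no low-count filter, DESeq2 1.42.0, in-register rows alone, all 18 libraries, replicate blocks and leaving out each library.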

Additional observations from a re-analysis of the deposited data

Results flagged for a closer look

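The 3 libraries of sample 1 at 0h, which the reported comparisons left out, held more Chrd, Bambi and Ltbp3 than any of the 3 libraries of sample 2 at 0h, in CPM of total counts. Chrd averaged 85.3 CPM in sample 1 and 45.7 CPM in sample 2, Bambi 27.6 CPM in sample 1 and 16.9 CPM in sample 2, and Ltbp3 2880 CPM in sample 1 and 1880 CPM in sample 2 (n = 3 each). Fstl1 averaged 1320 CPM in sample 1 and 1190 CPM in sample 2, with overlap. How many of all rows separate sample 1 from sample 2 at 0h in this way was not counted. In the libraries of sample 1, 21.0% to 21.3% of the counts lay on in-register rows, against 12.5% to 13.7% in the other 15 libraries, and the part of this share in the levels was not tested. No library stood apart from the other 5 at 24h or at 7d for any of the 4 genes, and neither a difference between the hairpins nor a change of the hairpin difference with time passed the test.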

How the results depend on the processing

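Over 23 alternatives to each of 32 results for the 4 genes, 690 of 736 values kept their direction and their side of the threshold, 8 passed where the reported one did not, and 38 changed sign, 34 of them when 1 library was left out; none of the 38 passed. No cause was tested beyond what an alternative's own construction shows. The 8 were Fstl1 for 7d against 0h with DESeq2 (0.87), in-register rows (0.87), all 18 libraries (0.75), the sample number within construct as a replicate block (1.04), the number shared over the constructs as a block (1.04) and without shRcor2-18 sample 1 at 7d, and Ltbp3 for 7d against 0h with all 18 libraries (-0.85) and the shared block (-0.67). The blocks changed no other call for the 4 genes, and Vasn for 7d against 0h lost its call with both (0.32 each). No label says that the numbers pair the samples, and the reported fit, without a block, took them as unpaired. Within a construct, deviations at 24h and 7d correlated at 0.03 to 0.06 over all tested rows, most of them out of register. Over 555 in-register rows they correlated at 0.28 to 0.47, and the same 3 pairs of closest libraries formed at both times. Whether the numbers join libraries of different times is therefore not settled. The log2 difference of Chrd for 24h against 0h changed sign with all 18 libraries (-0.50), the block within construct (-0.081) and the shared block (-0.077), and that of Bambi with all 18 libraries (-0.36). Values that kept their sign and moved by over 1.5 times were, for 24h against 0h, Bambi with the blocks (0.34 each), Fstl1 with the blocks (0.56 and 0.57) and all 18 libraries (0.24), and Ltbp3 with the blocks (-0.31 each) and all 18 libraries (-0.50); those for 7d against 0h stand beside the results. Between constructs over all times, all 18 libraries gave Chrd 0.039 for the hairpins and, for shRcor2-20 against shRcor2-18, Chrd -0.16, Bambi 0.10 and Ltbp3 -0.18; the other values between constructs that moved so were reported as 0.02 or 0.04. Among the other pathway genes, all 18 libraries turned Vasn to -0.15 for 24h and -0.14 for 7d against 0h, and Crebbp for 7d against 0h to -0.47, as library size alone did (-0.022) and 1 library left out could (-0.083 to 0.065). Levels in CPM of total counts without TMM moved by less than 1 SD in all 12 means, and every gene named as most like a modulator ranked within the first 20 by Spearman's rho.

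Rows called with DESeq2 numbered 578, 1406 and 1076 for 24h against 0h, 7d against 0h and 7d against 24h, 109, 29 and 21 for the hairpins over all times, at 24h and at 7d, 33 for the change of the hairpin difference and 46 between the hairpins. Over the 555 in-register rows they numbered 29, 125 and 90 between times, 1 for the hairpins at 24h and 0 in the other 4 comparisons. With the block within construct they numbered 56, 432 and 169 between times, 0, 1 and 0 for the hairpins over all times, at 24h and at 7d, 1 for their change and 0 between the hairpins, and the shared block gave 6 between the hairpins. With all 18 libraries they numbered 38 for 7d against 24h and 0 in all 5 comparisons of constructs. Without the filter on low counts they numbered 20 for the hairpins over all times, 4 at 24h and 25 between the hairpins, and library size alone gave 8 for the hairpins over all times.

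Leaving out 1 library gave 126 (without shScramble sample 2 at 0h) to 231 rows for 24h against 0h, 310 (the same library) to 762 for 7d against 0h, and 120 (without shRcor2-20 sample 1 at 24h) to 307 for 7d against 24h. It gave 0 to 14 for the hairpins over all times, 2 to 12 (without shScramble sample 2 at 24h) at 24h, 5 to 15 (without shScramble sample 1 at 7d) at 7d, 4 to 11 for their change and 0 to 20 between the hairpins. It moved the log2 difference of Fstl1 for 7d against 0h over 0.72 to 0.98, those for 24h against 0h over -0.18 to 0.29 for Chrd and -0.13 to 0.25 for Bambi, and those of Chrd for the hairpins over -0.061 to 0.31 over all times, -0.48 to 0.22 at 24h and -0.046 to 0.12 at 7d. Bambi ran over -0.78 to -0.39 for 7d against 0h and 0.33 (without shRcor2-18 sample 2 at 24h) to 1.01 for the hairpins at 24h. Fstl1 for the hairpins ran over 0.14 to 0.41 at 24h and 0.097 (without shRcor2-18 sample 2 at 7d) to 0.55 at 7d. Ltbp3 ran over -0.21 to -0.028 for 24h against 0h and, for the hairpins, -0.26 to -0.099 over all times, -0.43 to 0.041 at 24h and -0.31 to -0.027 at 7d. The change of the hairpin difference ran over -0.18 to 0.52 for Chrd, 0.098 to 0.77 for Bambi, -0.20 to 0.26 for Fstl1 and -0.20 to 0.27 for Ltbp3. Between the hairpins, Chrd ran over -0.21 to 0.10, Bambi -0.16 to 0.24, Fstl1 -0.028 to 0.23 and Ltbp3 -0.20 to 0.00038.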
